A study of Homo sapiens with 9 samples.

Results

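The regulators of G protein signalling (RGS) are described here through 10 genes, RGS2, RGS3, RGS4, RGS5, RGS10, RGS12, RGS14, RGS16, RGS19 and RGS20, out of 23619 gene symbols with a value in every sample. RGS4 was chosen by its measured level, for the spread between clones of 1 genotype, so its values are given as a description with no test, and the tests concern the other 9 genes. All 10 had enough counts to be among the 15532 genes tested.

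The study asked whether loss of DIP2C alters gene expression in RKO, a human colorectal cancer cell line. RNA of 9 samples grown for 48 h was sequenced. There were 2 parental samples, with DIP2C intact, 2 DIP2C-/- clones (E3 and C10) and 5 DIP2C+/- clones (A6-C9, A9-A12, F6-A7, G1-A5 and H9-A4), in which recombinant adeno-associated virus had been used to delete part of exon 9 on both alleles or on 1 allele. Each clone is 1 single-cell line with 1 library, the parental cells were not cloned, and no targeted clone with intact DIP2C was among the samples, so cloning and genotype cannot be told apart in any comparison with parental cells. The study describes both of its DIP2C-/- clones as derived from 1 DIP2C+/- clone by further targeting, so the 2 are not independent in origin. It also describes fewer DIP2C+/- clones than the 5 labelled here, and their names could not be matched, so whether all 5 arose separately is not known.

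G protein-coupled receptors act by loading the Gα subunit of a heterotrimeric G protein with GTP. RGS proteins bind the active Gα and speed up its hydrolysis of GTP, which shortens the signal of the receptor. The small R4 members (RGS2, RGS3, RGS4, RGS5, RGS16) consist of little more than the RGS domain, RGS12 and RGS14 of the R12 group add further domains around it, and RGS19 and RGS20 of the RZ group carry a string of cysteines near the start of the protein. RGS4, RGS5 and RGS16 are also known as proteins that the Arg/N-degron pathway destroys after oxidation of a cysteine at the second residue.

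RGS4 (ENSG00000117152.14) lies on the plus strand of chromosome 1, from 163038565 to 163046592 in GRCh37, the assembly with the coordinates of hg19. RGS5 is its neighbour on the same chromosome, from 163080911 to 163291581 on the minus strand. RGS16 (182567758 to 182573524, minus strand) and RGS2 (192778169 to 192781405, plus strand) are also on chromosome 1. RGS19 lies on chromosome 20, from 62704534 to 62711341 on the minus strand, and RGS10 on chromosome 10, from 121259329 to 121302231 on the minus strand. No exon of the 10 genes was shared with another gene of the files in this annotation.

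Start site windows of 300 bases, 250 before and 50 after an annotated start, were taken from RefSeq on GRCh38.p14 for the genes that the results turn on. RGS4 is shown with 2 of its 4 annotated starts because its level ranged most, RGS2 and RGS16 as the R4 genes whose DIP2C-/- clones did not overlap the parental samples, and RGS19 because all its clones lay above the parental samples. The capitals mark CpG dinucleotides, the sites of DNA methylation in human cells.
RGS4, chr1:163068621-163068920, plus strand: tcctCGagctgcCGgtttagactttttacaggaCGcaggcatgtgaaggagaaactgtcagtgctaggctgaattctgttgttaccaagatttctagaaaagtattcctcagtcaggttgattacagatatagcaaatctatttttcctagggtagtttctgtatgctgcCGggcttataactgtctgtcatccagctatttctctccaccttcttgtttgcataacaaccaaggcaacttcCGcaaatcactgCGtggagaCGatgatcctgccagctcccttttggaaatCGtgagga
RGS4, chr1:163069111-163069410, plus strand: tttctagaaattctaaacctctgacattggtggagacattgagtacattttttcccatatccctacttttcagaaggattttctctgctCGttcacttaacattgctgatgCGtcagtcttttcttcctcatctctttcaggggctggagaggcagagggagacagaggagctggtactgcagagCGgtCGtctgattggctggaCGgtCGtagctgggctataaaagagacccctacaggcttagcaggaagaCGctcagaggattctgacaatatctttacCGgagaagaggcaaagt
RGS2, chr1:192808789-192809088, plus strand: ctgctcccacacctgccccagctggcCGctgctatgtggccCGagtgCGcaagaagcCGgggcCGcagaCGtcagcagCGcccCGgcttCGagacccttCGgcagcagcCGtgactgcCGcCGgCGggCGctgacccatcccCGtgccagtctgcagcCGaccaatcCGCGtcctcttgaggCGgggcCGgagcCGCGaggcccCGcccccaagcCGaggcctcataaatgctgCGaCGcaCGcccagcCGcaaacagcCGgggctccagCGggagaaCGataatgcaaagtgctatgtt
RGS16, chr1:182604340-182604639, minus strand: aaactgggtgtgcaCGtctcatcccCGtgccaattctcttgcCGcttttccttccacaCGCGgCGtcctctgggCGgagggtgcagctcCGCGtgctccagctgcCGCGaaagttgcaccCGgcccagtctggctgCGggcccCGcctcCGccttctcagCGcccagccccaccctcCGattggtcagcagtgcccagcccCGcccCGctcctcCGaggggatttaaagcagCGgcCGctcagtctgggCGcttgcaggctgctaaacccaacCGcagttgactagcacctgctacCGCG
RGS19, chr20:64079915-64080214, minus strand: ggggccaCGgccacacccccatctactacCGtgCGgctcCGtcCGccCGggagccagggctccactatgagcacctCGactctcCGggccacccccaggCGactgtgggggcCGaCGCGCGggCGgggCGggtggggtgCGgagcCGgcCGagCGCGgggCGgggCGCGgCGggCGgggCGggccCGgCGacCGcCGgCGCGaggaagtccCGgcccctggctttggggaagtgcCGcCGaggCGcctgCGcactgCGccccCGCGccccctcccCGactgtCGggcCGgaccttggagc

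Every window of RGS4 lay below the median of all windows in CpG, as did some windows of other listed genes. The windows shown are those with the most CpG of each gene. Both windows shown had 8, and the other 2 RGS4 starts had 4 and 2, against a median of 14 over 35116 windows of the same length. Of all windows, 39.3% had fewer than 8. The RGS2 window had 32, the RGS16 window 26 and the RGS19 window shown 43. Windows below the median were also found for RGS3 (1, 4, 6 and 12), RGS5 (1), RGS10 (5) and RGS12 (9, 11 and 13), so few CpG was not particular to RGS4. The motif TATAAA was found in 11.5% of all windows on either strand and, among the listed genes, in 1 window each of RGS4 and RGS3. The motif GGGCGG was found in 45.0% of all windows and in 11 of the 23 windows of the listed genes, a similar share. Those windows belonged to 7 of the 9 listed genes with a window (RGS2, RGS3, RGS5, RGS10, RGS12, RGS16 and RGS19). CAGGTG was in 20.6% of all windows and in 1 window each of RGS2, RGS3, RGS5 and RGS16. TGANTCA (7.7% of all windows) and TGACGTCA (1.8%) were in none of the 23 windows of the listed genes. These are matches of letters and no measurement of binding or methylation in the cells.

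The samples held 14772593 to 21486483 estimated counts. Levels are given as counts per 1000000 counts (CPM) after TMM scaling, which corrects for differences in composition between libraries, and 3 counts correspond to 0.1396 to 0.2031 CPM. DIP2C itself was 61.0 and 70.9 CPM in the parental samples, 17.4 and 22.8 CPM in E3 and C10, and 33.65, 38.9, 47.0, 41.7 and 56.3 CPM in A6-C9, A9-A12, F6-A7, G1-A5 and H9-A4. The value counts the whole gene, so it does not read the deleted part of the exon. H9-A4 had the smallest reduction of DIP2C and stood apart from the other DIP2C+/- clones across genes. The chi-square per degree of freedom of its counts against each of the other 4 was 116.86 to 136.72, against 24.64 to 63.3 among those 4, and the main results that rest on it are given with and without it. Of the markers set for the line, KRT18 (121 to 293 CPM), KRT8 (7.02 to 21.5 CPM) and CDX2 (15.6 to 19.8 CPM) were present, whereas CDH1, KRT19, KRT20, CDX1, CDH17, VIL1 and LGR5 stayed below 1 CPM in every sample. Of 14 markers of fibroblast, endothelial and blood cells, 13 stayed below 5 CPM in every sample, and CD68, a lysosomal protein of macrophages that other cells also make, was 86.0 CPM in parental cells, 16.25 CPM in H9-A4 and up to 674 CPM in A9-A12. The summed level of the 14 was 92.8 to 97.0 CPM in parental samples, 475 to 483 CPM in DIP2C-/- clones and 24.4 to 681 CPM in DIP2C+/- clones, nearly all of it CD68, and its part in the RGS values was not tested.

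**Figure D1:**
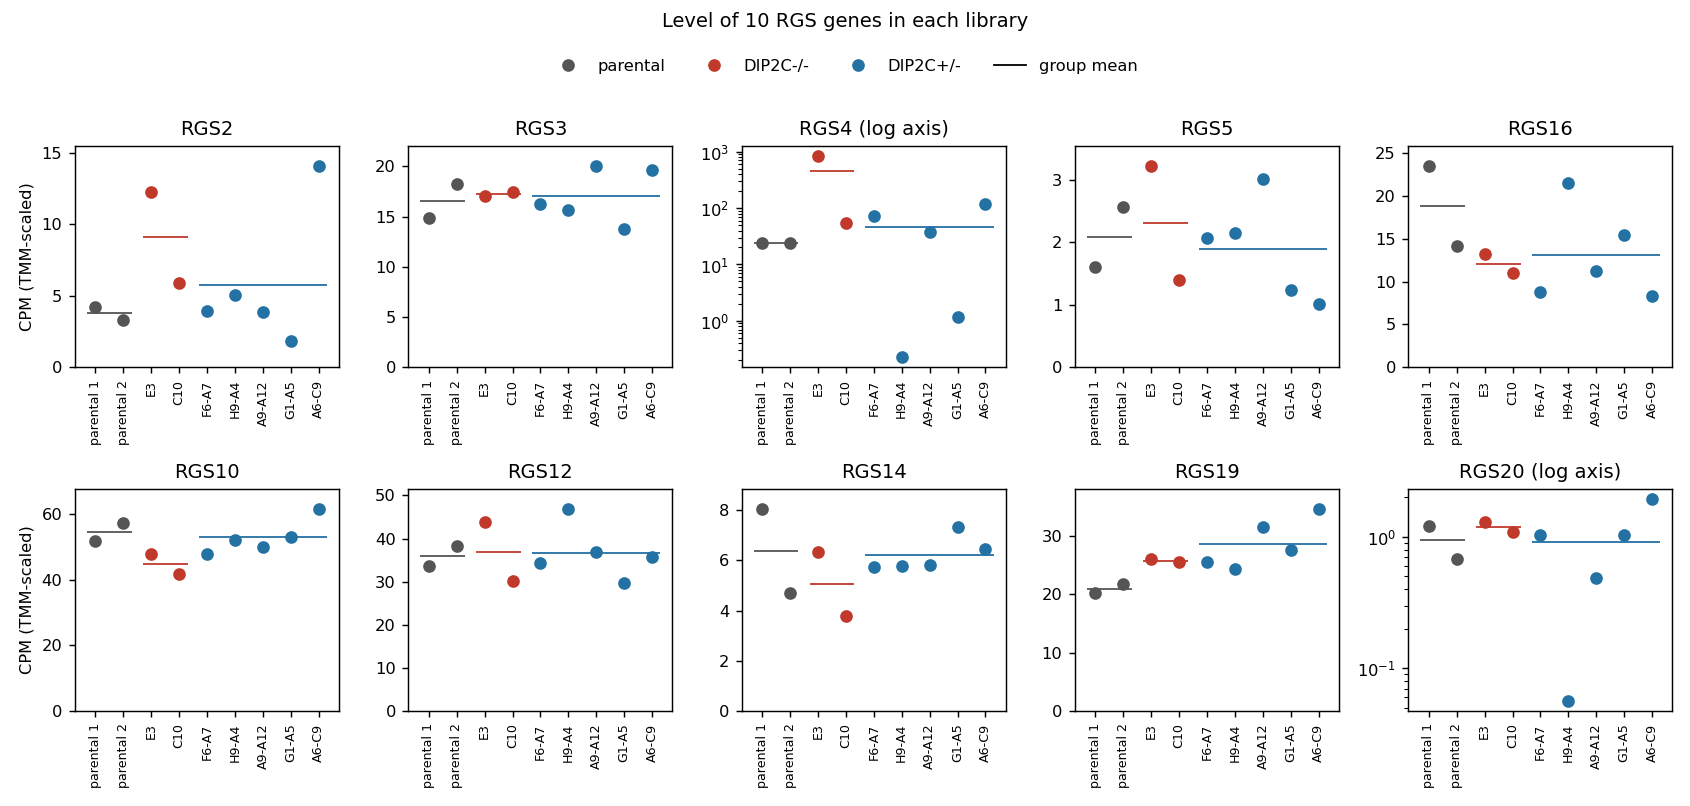
Level of each of the 10 RGS genes in CPM (vertical axis, logarithmic for RGS4 and RGS20 and from 0 for the others) in the 9 libraries (horizontal axis), with parental samples in grey, DIP2C-/- clones in red and DIP2C+/- clones in blue, and lines at the group means. RGS4 runs from 0.2265 CPM in H9-A4 to 851 CPM in E3 while both parental samples sit at 23.8 CPM, and RGS3, RGS10, RGS12 and RGS19 stay within narrow bands.

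RGS4, which limits signalling through Gαi and Gαq and is best known from neurons and heart, was 23.8 CPM in both parental samples. It was 851 CPM in E3 and 54.5 CPM in C10, the DIP2C-/- clones. Among DIP2C+/- clones it was 71.9 CPM in F6-A7, 0.2265 CPM in H9-A4, 37.7 CPM in A9-A12, 1.18 CPM in G1-A5 and 116.7 CPM in A6-C9. Thus 5 of 7 clones lay above the parental samples and 2 lay below them, and both of the low clones were DIP2C+/-.

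In E3 the level was 35.7-fold that of the parental mean. The ratio was 4.9 in A6-C9, 3.02 in F6-A7, 2.29 in C10 and 1.585 in A9-A12. In the opposite direction, the parental mean was 20.1-fold above G1-A5 (95% exact Poisson interval 13.9 to 30.3, from 28 reads) and 105-fold above H9-A4 (48.3 to 286, from 6 reads). These intervals cover counting error in the clone alone, and there was 1 library per clone. Levels were computed after rounding, from 4.265 in H9-A4, so its ratio and interval are slightly too high. Since each library is a pool of many cells, fewer cells with RGS4 and less RGS4 per cell cannot be told apart. Within a genotype, E3 was 15.6-fold above C10, and A6-C9 was 515-fold above H9-A4.

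The order of RGS4 from low to high was H9-A4, G1-A5, the parental samples, A9-A12, C10, F6-A7, A6-C9 and E3. By genotype the mean was 23.8 ± 0.0122 CPM in parental cells (SD, n = 2), 45.5 ± 49.6 CPM in DIP2C+/- clones (SD, n = 5) and 453 ± 563 CPM in DIP2C-/- clones (SD, n = 2). The neighbouring means in this order differed by less than the spread between clones. The fitted log2 fold change of DIP2C-/- clones against parental cells was 4.25, and it was 1.21 without E3. For DIP2C+/- clones it was 0.94, and 0.22 without A6-C9. For all clones it was 1.88, and 0.99 without E3.

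On the log2 scale the level of RGS4 ranged over 11.31 among the 7 clones, the spread it was chosen for. Of the 15532 genes only S100A16, which encodes a calcium-binding protein, had a wider range (12.36), and RBM12, which encodes an RNA-binding protein, followed just below RGS4 with 11.12. The median range of all genes was 0.94. Without H9-A4 the range of RGS4 over 6 clones was 9.36, and 7 genes had a wider one. Among the 5 DIP2C+/- clones alone RGS4 ranged over 8.44, and 13 genes had a wider range. Between the 2 DIP2C-/- clones it differed by 3.96, and 23 genes differed by more. Between the parental samples it differed by 0.0010, less than in 99.7% of genes.

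**Figure D2:**
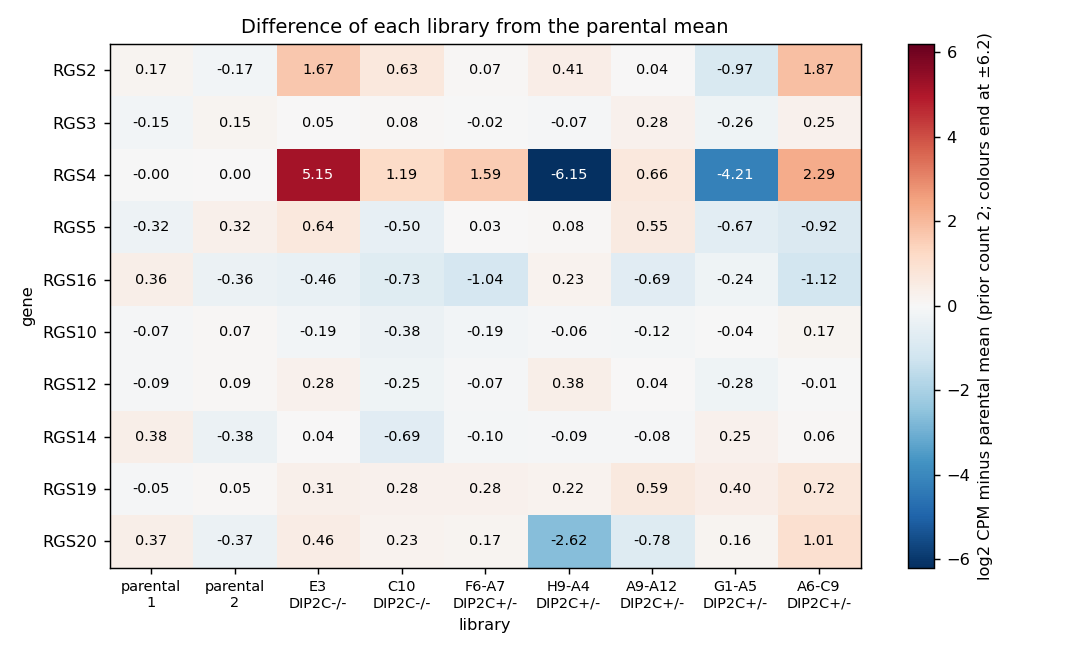
Difference of log2 CPM from the mean of the 2 parental samples for each of the 10 RGS genes (rows) in the 9 libraries (columns), with red above and blue below, colours ending at 6.2 either way and the value printed in each cell. RGS4 shows both colours at full strength, from 5.15 in E3 to -6.15 in H9-A4, RGS2 is highest in E3 and A6-C9, and RGS19 is above 0 in all 7 clones.

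RGS2, an R4 member that acts mainly on Gαq, was low in parental cells, at 4.24 and 3.34 CPM. It was 12.3 CPM in E3 and 5.91 CPM in C10. In DIP2C+/- clones it was 3.96 CPM in F6-A7, 5.04 CPM in H9-A4, 3.865 CPM in A9-A12, 1.87 CPM in G1-A5 and 14.1 CPM in A6-C9. The highest values were thus in E3 and A6-C9, where RGS4 was also highest, and the lowest was in G1-A5. In H9-A4, where RGS4 was lowest, RGS2 was above both parental samples. Both DIP2C-/- clones lay above the parental samples. Of the DIP2C+/- clones, H9-A4 and A6-C9 lay above them, G1-A5 below them, and F6-A7 and A9-A12 between them. The log2 fold change was 1.26 (SE 0.78, 95% interval -0.46 to 2.97) for DIP2C-/- clones and 0.61 (SE 0.66, interval -0.86 to 2.07) for DIP2C+/- clones. Neither passed the test, with adjusted p of 0.521 and 0.769 by the quasi-likelihood test of edgeR. Without E3 the DIP2C-/- value was 0.65, and without A6-C9 the DIP2C+/- value was -0.04. After RGS4 and RGS20, RGS2 had the widest range over clones among the 10 genes, 2.84 on the log2 scale, and 5.19% of all genes ranged more widely.

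RGS16, an R4 member that acts on Gαi and Gαq, was 23.5 and 14.2 CPM in the parental samples, 13.2 CPM in E3 and 10.99 CPM in C10. It was 8.83 CPM in F6-A7, 21.5 CPM in H9-A4, 11.3 CPM in A9-A12, 15.4 CPM in G1-A5 and 8.37 CPM in A6-C9. Of 7 clones, 5 were below both parental samples, whereas H9-A4 and G1-A5, the clones with the least RGS4, lay between them. The log2 fold change of all clones was -0.56 (SE 0.34, 95% interval -1.32 to 0.20, adjusted p = 0.5, edgeR). Without H9-A4 it was -0.73, with an adjusted p of 0.12, and without the first parental sample it was -0.16, with an adjusted p of 0.963. The parental samples themselves were 0.72 apart on the log2 scale, and 14.2% of genes differed by more.

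RGS3, an R4 gene that also makes longer proteins, hardly varied. Its level was 14.9 and 18.2 CPM in parental cells and 13.75 to 20.1 CPM in clones, with a log2 fold change of all clones of 0.05 (95% interval -0.38 to 0.48). RGS5, known from pericytes and vascular smooth muscle, was low. It was 1.597 and 2.559 CPM in parental cells, 3.225 CPM in E3, 1.40 CPM in C10 and 1.02 to 3.01 CPM in DIP2C+/- clones, from 21 to 71 reads a sample. Its interval for all clones ran from -1.16 to 1.05, so changes of either sign within these limits were not resolved with these samples.

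RGS10, a small R12 member that acts on Gαi, was the most abundant of the 10 genes per length in parental cells. It was 52.0 and 57.4 CPM in parental cells, 47.9 CPM in E3, 41.8 CPM in C10, and 61.6, 50.1, 47.9, 53.1 and 52.3 CPM in A6-C9, A9-A12, F6-A7, G1-A5 and H9-A4. Both DIP2C-/- clones lay below the parental samples and below every DIP2C+/- clone, though E3 and F6-A7 were nearly equal. The log2 fold change was -0.29 (SE 0.17, 95% interval -0.67 to 0.09, adjusted p = 0.508, edgeR) for DIP2C-/- against parental cells. For DIP2C+/- against DIP2C-/- clones it was 0.24 (SE 0.15, interval -0.08 to 0.56, adjusted p = 0.893, edgeR). Neither comparison passed the test.

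RGS12, a large R12 member with a GoLoco motif that holds inactive Gαi, was 33.7 and 38.3 CPM in parental cells and 29.6 to 46.8 CPM in clones, highest in H9-A4. RGS14, which carries the same kind of motif and is known from hippocampal neurons, was 8.04 and 4.70 CPM in parental cells and 3.78 to 7.34 CPM in clones, lowest in C10. The log2 fold changes of all clones were 0.03 (95% interval -0.41 to 0.47) for RGS12 and -0.12 (-0.79 to 0.55) for RGS14. The 5 DIP2C+/- clones lay between the parental samples for RGS14, from 5.73 to 7.34 CPM.

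RGS19, an RZ member that acts on Gαi, was 20.2 and 21.7 CPM in the parental samples. It was 26.0 CPM in E3 and 25.5 CPM in C10, and 34.6, 31.6, 25.5, 27.6 and 24.35 CPM in A6-C9, A9-A12, F6-A7, G1-A5 and H9-A4. All 7 clones were above both parental samples, by 1.16-fold in H9-A4 to 1.65-fold in A6-C9 over the parental mean. It was the sole one of the 9 genes with no overlap between all clones and parental cells, a pattern that 5.41% of all genes showed in this direction. The log2 fold change of all clones was 0.41 (SE 0.18, 95% interval 0.02 to 0.80), with an unadjusted p of 0.0401 and an adjusted p of 0.349 by the quasi-likelihood test of edgeR. Over the settings tried the adjusted p ran from 0.129, without H9-A4, to 0.819, so RGS19 did not pass the test in any of them.

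RGS20, the RZ member known for its action on Gαz, was, with RGS5, among the least abundant genes per length. It was 1.21 and 0.68 CPM in parental cells, 1.29 CPM in E3, 1.09 CPM in C10, 1.04 CPM in F6-A7, 0.48 CPM in A9-A12, 1.03 CPM in G1-A5 and 1.94 CPM in A6-C9. In H9-A4 it was 0.057 CPM, from 2 reads, under the 0.1711 CPM that 3 counts give there. The deposited value, 1.422, was rounded down before this level was computed, so the level is too low. The ratio of the parental mean to H9-A4 was 16.7, with a counting interval of 4.62 to 138. Both the ratio and its interval are too high because of that rounding. The range of 3.63 over the clones rests on that library and was 1.79 without it.

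Per kilobase of exon, the parental order was RGS10 (42.9 CPM per kb), RGS19 (10.3), RGS16 (7.83), RGS4 (5.03), RGS12 (2.61), RGS2 (1.82), RGS14 (1.72), RGS3 (1.26), RGS5 (0.314) and RGS20 (0.295). The ranges of the 2 parental samples overlapped between RGS2 and RGS14, between RGS14 and RGS3, and between RGS5 and RGS20, so these neighbours were not separated. The length was the union of all annotated exons of a gene (13.15 kb for RGS3 and 13.76 kb for RGS12), which can exceed any single transcript. The order depends on that choice. In E3, RGS4 reached 180 CPM per kb, above the highest value of RGS10 in any clone (48.4), and in H9-A4 it was 0.048, below every value of RGS5 (0.154 or more).

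None of the 9 genes passed an adjusted p of 0.05 in any comparison. By the quasi-likelihood test of edgeR on all 9 samples, 0 of 9 were called for DIP2C-/- against parental cells, where 0.00644% of all genes were, and 0 of 9 for DIP2C+/- against parental cells, where 0.0966% were. For all clones it was 0 of 9 against 0.18%, and for DIP2C+/- against DIP2C-/- clones 0 of 9 against 0.0%. With so few calls among all genes these counts say little about the RGS genes. At an unadjusted p under 0.05, RGS19 was found for DIP2C+/- and for all clones, that is 1 of 9, against 11.6% and 13.4% of all genes. It was 0 of 9 for DIP2C-/- against parental cells (12.7% of all genes) and 0 of 9 between the genotypes (5.57%).

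Settings that called more genes did not call any of the 9 genes. Without H9-A4 the share of all genes called was 4.76% for DIP2C-/-, 7.95% for DIP2C+/- and 8.95% for all clones, and the members called were 0 of 9 each time. By DESeq2 the shares were 1.91%, 1.24% and 1.96%, with 0.0386% between the genotypes, and again 0 of 9 genes were called. A fit of DIP2C-/- and parental samples alone called 12.6% of all genes and 0 of 9 members. For DIP2C+/- and parental samples alone it was 0.0538% of all genes, and for the 2 knockout genotypes alone 0.00655%, again with 0 of 9 members, and without H9-A4 the share between these was 0.0%.

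**Figure D3:**
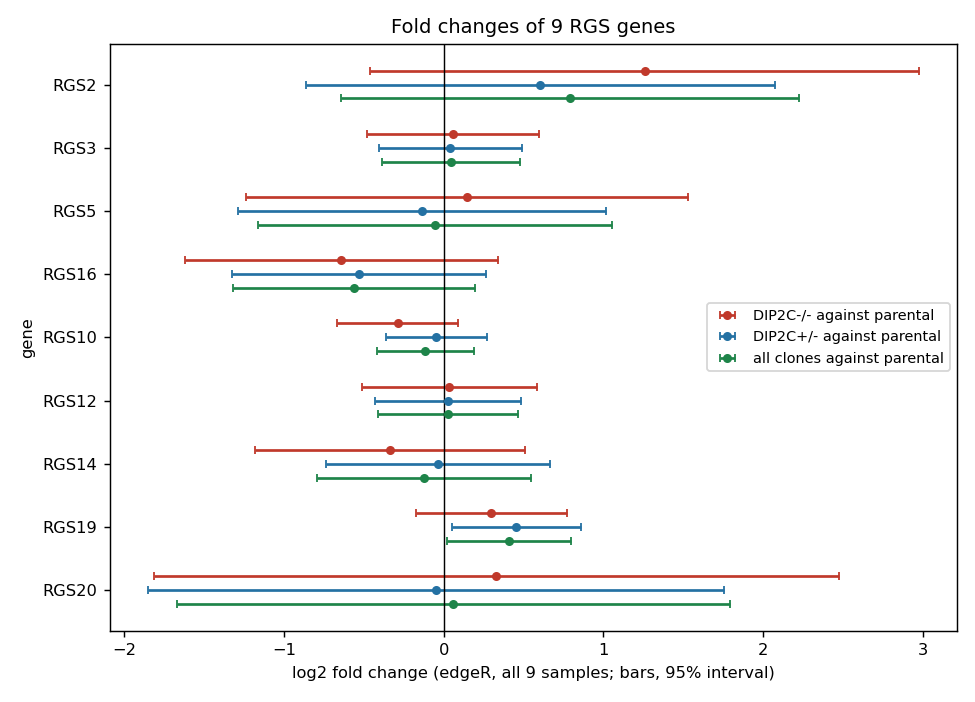
Log2 fold change of the 9 RGS genes other than RGS4 against parental cells (horizontal axis) with 95% intervals as bars, for DIP2C-/- clones in red, DIP2C+/- clones in blue and all clones in green. The intervals cross 0 for 8 genes, and those of RGS19 for DIP2C+/- and for all clones lie just above it (0.02 to 0.80 for all clones).

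Counted by samples that did not overlap, RGS2 and RGS19 were higher in both DIP2C-/- clones than in both parental samples, 2 of 9 where 26.9% of all genes were. RGS16 and RGS10 were lower, 2 of 9 where 26.3% of all genes were. For DIP2C+/- clones RGS19 was higher, 1 of 9 against 7.15%, and 0 of 9 were lower against 7.11%. Between the genotypes RGS10 was higher in DIP2C+/- clones, 1 of 9 against 6.86%, and 0 of 9 were lower against 5.05%. For all clones 0 of 9 were lower, against 5.54%. The shares of members were near those of all genes in each case. The comparisons with parental cells use the same 2 parental samples, and the comparison between the genotypes uses clones alone.

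The likeness of other genes to RGS4 was described by Pearson's r of log2 CPM over the 9 samples, among the 12687 genes that averaged 1 CPM or more. The most alike were LINC00476, a long noncoding RNA (r = 0.95), GATM, an enzyme of creatine synthesis (0.923), ADD1, an adducin of the membrane skeleton (0.919), GVINP1, an interferon-induced GTPase pseudogene (0.918), and RAB15, a small GTPase of endosomal traffic (0.913). They are the highest of many genes over few samples, and r has no test here. Their changes were far smaller than those of RGS4. On the log2 scale the difference of LINC00476 from the parental mean was 0.54 in E3 and -0.44 in H9-A4. For GATM, at 0.2265 to 2.09 CPM, it was 0.64 and -1.77.

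Of the listed genes, RGS2 was the most like RGS4, with r = 0.628 and rank 716. Without H9-A4 its r was 0.863, and without E3 it was 0.47. RGS3 followed with 0.535. RGS5 had 0.228, which was 0.428 without H9-A4 and -0.08 without E3. RGS12 had -0.02, which was 0.731 without H9-A4 and -0.39 without E3, so its value rests on single libraries. RGS19 had 0.194, RGS14 -0.13 and RGS10 -0.19. RGS16 ran the opposite way with -0.58, or -0.38 without H9-A4. RGS20 had a mean below 1 CPM and was not ranked.

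**Figure D4:**
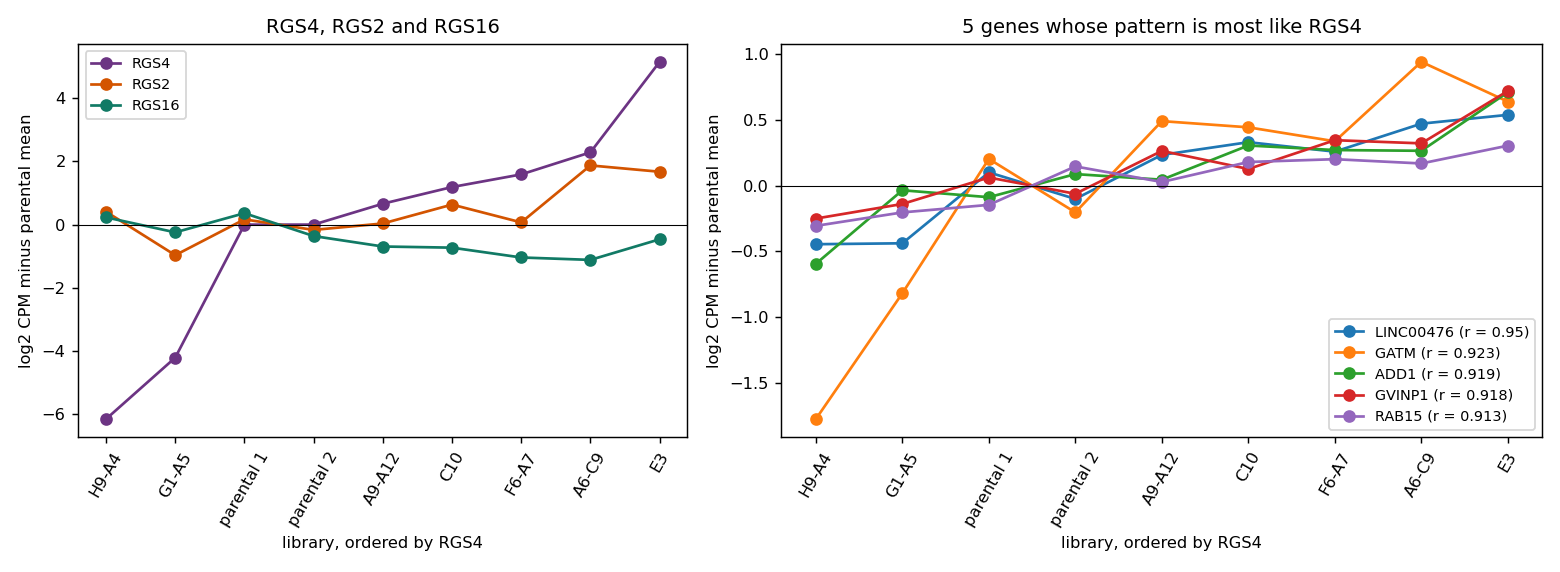
Difference of log2 CPM from the parental mean (vertical axes, of different extent) in the 9 libraries ordered by RGS4 (horizontal axes), for RGS4, RGS2 and RGS16 on the left and for the 5 genes most like RGS4 on the right. RGS4 spans 11.31 on this scale, whereas the 5 genes stay between -1.77 and 0.94.

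The 4 genes given here from beside RGS4 on chromosome 1 ranged less than RGS4, as nearly all genes did, since RGS4 was chosen for its range. Their ranges were above the median of 0.94 over all genes. RGS5 ranged over 1.56 between clones on the log2 scale, the mitotic kinetochore gene NUF2 over 1.18, HSD17B7, an enzyme of cholesterol and steroid synthesis, over 1.56, and DDR2, a collagen receptor, over 2.445, against 11.31 for RGS4. In E3, where RGS4 was 5.15 above the parental mean, the difference was 0.64 for RGS5 and -0.15 for NUF2. DDR2 was above the parental mean in 6 of 7 clones and below it in H9-A4 alone (-0.74), at levels of 0.91 to 5.42 CPM. CCDC190, the nearest annotated gene before RGS4, was not analysed here.

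**Figure D5:**
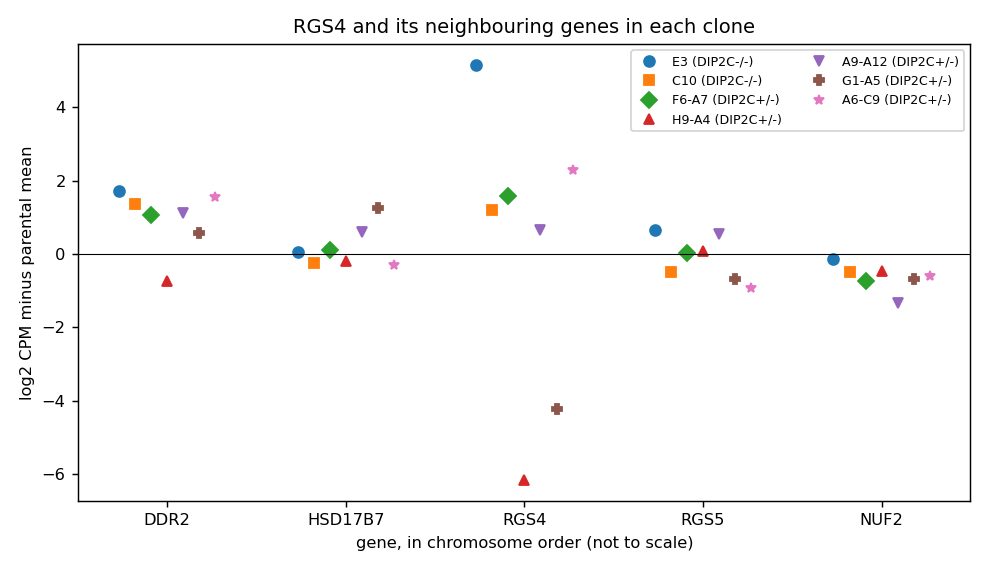
Difference of log2 CPM from the parental mean (vertical axis) for RGS4 and 4 neighbouring genes in chromosome order (horizontal axis, not to scale), with 1 symbol per clone. RGS4 spreads from -6.15 to 5.15, and the widest of the 4 neighbours plotted, DDR2, spreads over 2.445.

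The remaining 12 RGS genes of the files were mostly silent. RGS11, of the R7 group, was 5.56 and 6.68 CPM in parental cells and 3.70 to 10.3 CPM in clones. RGS7 reached 1.40 CPM and RGS9 1.08 CPM at most, RGS6 reached 1.04 CPM, and the other 8 stayed below 1 CPM in every sample. Of the 6 that passed the filter 0 were called in any comparison. Their fold changes of all clones were above 0 for 6 of 6, with a median of 0.29 on the log2 scale, against 0.02 over all genes tested. All of these except RGS11 lay at 1.40 CPM or less. RGS6, RGS22 and RGSL1 were highest in clones (1.04, 0.79 and 0.62 CPM) and could pass the filter through clones alone. The signs therefore say nothing about a rise shared by these genes.

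The partners of RGS proteins were expressed throughout. Of 15 Gα genes 12 were tested, led by GNAS (403 and 438 CPM in parental cells, 355 to 472 in clones), which stimulates adenylyl cyclase, and GNAI2 (201 and 172 CPM, 157 to 243), which inhibits it and is a substrate of many RGS proteins. GNA11, of the Gαq class, was 84.3 and 103 CPM in parental cells and 86.7 to 133 CPM in clones. By edgeR 0 of the 12 were called in any comparison, also without H9-A4, and their median log2 fold change of all clones was -0.09. Of 12 tested Gβ and Gγ genes 0 were called, with a median of -0.02. Among the 3 most abundant of them, GNB1 was 362.5 and 361.3 CPM in parental cells and 344 to 420 CPM in clones. GNG12 was 141.5 and 118.3 CPM in parental cells and 78.8 to 267 CPM in clones. For both, clones lay above and below the parental samples. GNB2 was 200 and 206 CPM in parental cells and 238 to 319 CPM in clones, with no overlap. Of all genes, 5.41% were higher in all clones without overlap, and GNB2 was not called (adjusted p = 0.313 for all clones, edgeR).

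Receptors and ligands were led by ADORA2B, an adenosine receptor, NTSR1, the neurotensin receptor, and S1PR2, a sphingosine phosphate receptor. NTSR1 was 19.28 and 18.96 CPM in parental cells, 46.2 CPM in E3, 51.4 CPM in C10, 48.6 CPM in F6-A7, 37.25 CPM in A9-A12 and 57.0 CPM in A6-C9, but 15.8 CPM in G1-A5 and 2.32 CPM in H9-A4. It was thus lowest in the clones with the least RGS4, though C10 lay above E3, unlike for RGS4. How many genes show this order was not counted, and H9-A4 stood apart across genes. Of 23 tested genes of this list, 16 had a fold change of all clones below 0, with a median of -0.14 against 0.02 over all genes tested, and 0 were called by edgeR. Without H9-A4, 5 of the list were called as lower in all clones (GRPR, LPAR2, F2R, ADORA1 and ADRA2C), in a fit that called 8.95% of all genes. The effectors downstream, adenylyl cyclases and phospholipases C, gave 0 of 14. Without H9-A4, PLCB2 was called as lower in DIP2C+/- clones and in all clones, where 7.95% and 8.95% of all genes were called.

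Other proteins with an RGS domain, such as the exchange factors ARHGEF12 and ARHGEF1 and ADRBK1, a receptor kinase, gave 0 of 14. ARHGEF1 was 112.9 and 117.1 CPM in parental cells, 115 CPM in H9-A4 and 167 to 235 CPM in the other clones. Without H9-A4, ARHGEF1 was called as higher and AXIN2, a scaffold of the Wnt pathway, as lower in each comparison with parental cells. Those fits called 4.76% of all genes for DIP2C-/-, 7.95% for DIP2C+/- and 8.95% for all clones. With such shares, these calls and those below say little about the lists. The proteins that hold or exchange Gα without an RGS domain gave 0 of 9, with GPSM1 called as higher without H9-A4. The 8 genes of the Arg/N-degron pathway, among them UBR4 and METAP1, gave 0 of 8. The epithelial and colon markers gave 0 of 10 and the markers of other cell types 0 of 10, with CLDN3 called as lower and CD68 as higher without H9-A4.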

How the data were processed

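The authors sequenced RNA of RKO cells and clones on the Ion Proton system, aligned reads to hg19 with TopHat2 2.0.4 and quantified genes with Cufflinks (2.2.1 in the submitters' processing notes). Each deposited file holds 1 estimated count for every gene symbol, often not a whole number. How these were written is not given in the sources used here. In each sample 98.76% to 99.04% of low values (up to 20 steps) lay within 0.1 of whole multiples of a step of 0.7109 to 1.1145. Values divided by the step are called reads, and the fits were repeated on them.

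Values were rounded, filtered with filterByExpr by genotype, scaled by TMM and fitted with 1 coefficient per genotype over all 9 samples in edgeR 4.0.16 (R 4.3.3), with the 7 clones weighted equally in the contrast of all clones. P-values are from the quasi-likelihood F test, adjusted by Benjamini-Hochberg over 15532 genes, with calls at an adjusted p under 0.05. Log2 CPM used a prior count of 2. The script was tested on simulated data. The labels do not say how the samples were cultured relative to each other, so p-values measure only the spread between these samples. Intervals on reads are exact Poisson intervals at 95% and cover counting error only. The ratios given with them use CPM of the rounded values. Pairs of samples of 1 genotype gave a chi-square over its degrees of freedom of 20.71 to 136.72, so each was counted separately.

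Gene positions are from GENCODE 44 on GRCh37. Start site windows are from RefSeq (GRCh38.p14), which matched 9 of the 10 genes. The genes named were the 10 RGS genes, the 3 members of each related list with the highest mean CPM and any called, the 5 most like RGS4, 3 protein-coding neighbours on each side and DIP2C. Of these, 2 genes are not reported here. S100A16, RBM12, RGS6 and genes called without H9-A4 were named after their values were seen. The members and lists were chosen with earlier results of these data known. Alternatives were DESeq2 1.42.0, other scalings and filters, the compared groups alone, each sample left out, H9-A4 and A6-C9 left out, and a prior count of 0.5.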

Additional observations from a re-analysis of the deposited data

How the results depend on the processing

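The number of the 9 RGS genes called was 0 in every comparison under the 17 alternatives tried, of which all but the fit of the compared groups alone apply to all clones. Of the fold changes reported for these genes, 330 kept their direction and side of the threshold and 17 changed sign. Without H9-A4 and A6-C9 the log2 fold change was -0.23 for RGS2 in DIP2C+/- clones, 0.067 for RGS5 and -0.045 for RGS12 in all clones, and -0.029 for RGS16 between the genotypes. With 1 sample left out it ran from -0.042 to 0.83 for RGS2 and from -0.12 to 0.035 for RGS10 in DIP2C+/- clones. For all clones it ran from -0.10 to 0.20 for RGS3, from -0.36 to 0.32 for RGS5, from -0.069 to 0.12 for RGS12, from -0.46 to 0.31 for RGS14 and from -0.29 to 0.53 for RGS20. Between the genotypes RGS16 ran from -0.14 to 0.24. The cause was not tested. RGS19 kept a positive value under every setting against parental cells. For RGS4, leaving out E3 moved the value between the genotypes from -3.31 to -0.26, and its range over clones was 11.24 to 11.71 under other scalings and prior counts. RGS20 did not reach a mean of 1 CPM, so that filter gave no value for it. No paired analysis was possible because the clones carry names and no replicate number shared between genotypes. With 1 library per clone, the error within a clone is unknown. RGS5 rested on 21 to 71 reads a sample and RGS20 on 2 to 40. Batches could not be examined, as no date or run is given.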
